A study of Mus musculus with 6 samples.

Results

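STRIPAK (striatin-interacting phosphatase and kinase) is a cytoplasmic complex in which a striatin joins the phosphatase PP2A to kinases of the Ste20 family. The 9 members described here are the genes of the 3 striatins (*Strn*, *Strn3* and *Strn4*), of *Mob4* and *Pdcd10*, of the adaptors *Cttnbp2nl*, *Sike1* and *Fgfr1op2*, and of *Slmap*. They were taken by symbol from a table of read counts that lists 55453 genes, and all 9 were present and passed the filter on low counts. Poly(A) RNA-Seq was done on 6 libraries of mouse bone marrow-derived macrophages (BMDM), which are macrophages grown from marrow cells in a medium with a macrophage growth factor. In 3 libraries (PP2Ac-KO) the mice were *LysM-cre PP2Ac fl/fl*. In these mice cre, driven by the promoter of the myeloid lysozyme gene, deletes the floxed gene of the PP2A catalytic subunit α (*Ppp2ca*). Their background is given in the paper as *C57BL/6*, the same strain as the WT mice. The other 3 libraries (PP2Ac-WT) came from WT *C57BL/6* mice of a commercial breeder, which carry no cre and are not described as littermates, so that the deletion, the cre and the colony cannot be told apart. Mice were 6 to 10 weeks old, the same for both groups. Both groups were taken as stimulated with cGAMP, the ligand of STING, at 10 μg/mL for 4 h, although the labels give no treatment. Cell experiments of the study are described as biological triplicates, without saying whether these came from separate mice or from separate cultures of 1 mouse, so p-values measure the spread between these libraries.

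In STRIPAK, the striatins are the regulatory B subunits of PP2A, and they hold the phosphatase next to the kinases whose phosphorylation it removes. The Hippo kinases MST1 and MST2 are the best known of these substrates, and loss of STRIPAK activity leaves them active, which restrains YAP and TAZ. In macrophages the complex is of interest because the Hippo kinases and the kinases TBK1 and IKKε, which SIKE binds, act on the interferon response to cytosolic DNA. The comparison of PP2Ac-KO with PP2Ac-WT asks whether the transcripts of the complex differ when *Ppp2ca*, a gene of its phosphatase subunit, is deleted. The catalytic paralog *Ppp2cb* is not targeted.

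Total counts ran from 35257156 to 47390899 per library, and 21967 to 32490 of these lay on the 9 members. *Ppp2ca*, the targeted gene, had 47, 33 and 38 reads in PP2Ac-KO replicates 1 to 3 against 10654, 8913 and 8279 in PP2Ac-WT replicates 1 to 3. The macrophage markers were high in all 6 libraries, with a sum over 8 genes of 8763 to 8906 CPM (counts scaled to a common library size) in PP2Ac-KO and 7469 to 8010 CPM in the WT libraries, and 2 of the 8 were higher in PP2Ac-KO at FDR under 0.05. Markers of T and NK cells had 3 reads or fewer in every library for 5 of 6 genes. Dendritic cell markers were low, with a sum over 5 genes of 1.87 to 2.88 CPM in PP2Ac-KO against 0.954 to 1.69 CPM, and 2 of the 3 tested were higher (*Clec9a* by 1.25 and *Siglech* by 0.97 on the log2 scale, adjusted p = 0.0284 and 0.0194, edgeR). Fibroblast markers were lower in PP2Ac-KO for 6 of the 7 tested (sum over 8 listed genes 25.4 to 37.7 CPM against 81.2 to 127 CPM), and the proliferation genes for 5 of 5 (56.4 to 62.4 CPM against 106 to 135 CPM). Over all genes tested, 18.1% were higher and 19.0% lower at the same FDR. The sums of the neutrophil, B cell and erythroid markers were at most 1.89 CPM and overlapped between the groups, and no tested gene of these lists passed. The part of the marker differences in the differences below was not tested. In bulk RNA, fewer cells of a type and less RNA per cell cannot be told apart.

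Of the 9 members, *Pdcd10* and *Cttnbp2nl* were higher in PP2Ac-KO, *Strn4* and *Sike1* were lower, and *Strn*, *Strn3*, *Mob4*, *Fgfr1op2* and *Slmap* did not pass an FDR of 0.05 in edgeR's quasi-likelihood test. Over all 13680 genes tested, 18.1% were called higher and 19.0% lower, so that 2 of 9 in each direction is near the share of all genes. The groups did not overlap for these same 4 members, 2 with PP2Ac-KO above and 2 below, where 24.0% of all genes lay above and 26.8% below. The changes were small. The median log2 fold change of the members was 0.05 against -0.02 for all genes, and their median absolute change was 0.11 against 0.23. With the replicate number as a block, a pairing that the labels do not state, *Strn* joined the members called higher. This made 3 higher and 2 lower, while 24.4% of all genes were then called higher and 26.4% lower. Directions depend on the scaling between libraries. With TMM scaling 2470 genes were higher and 2604 lower, with upper-quartile scaling 2095 (15.3%) and 3356 (24.5%), and the members called were 2 and 2 in both. Scaled by library size alone, the median of all genes moved to -0.24, 1503 genes (11.0%) were higher and 6125 (44.8%) lower, and 0 members were higher and 4 lower in edgeR (0 higher and 5 lower at an unadjusted p under 0.05). Changes below are given with TMM scaling, under which the median gene sits at -0.02.

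**Figure D1:**
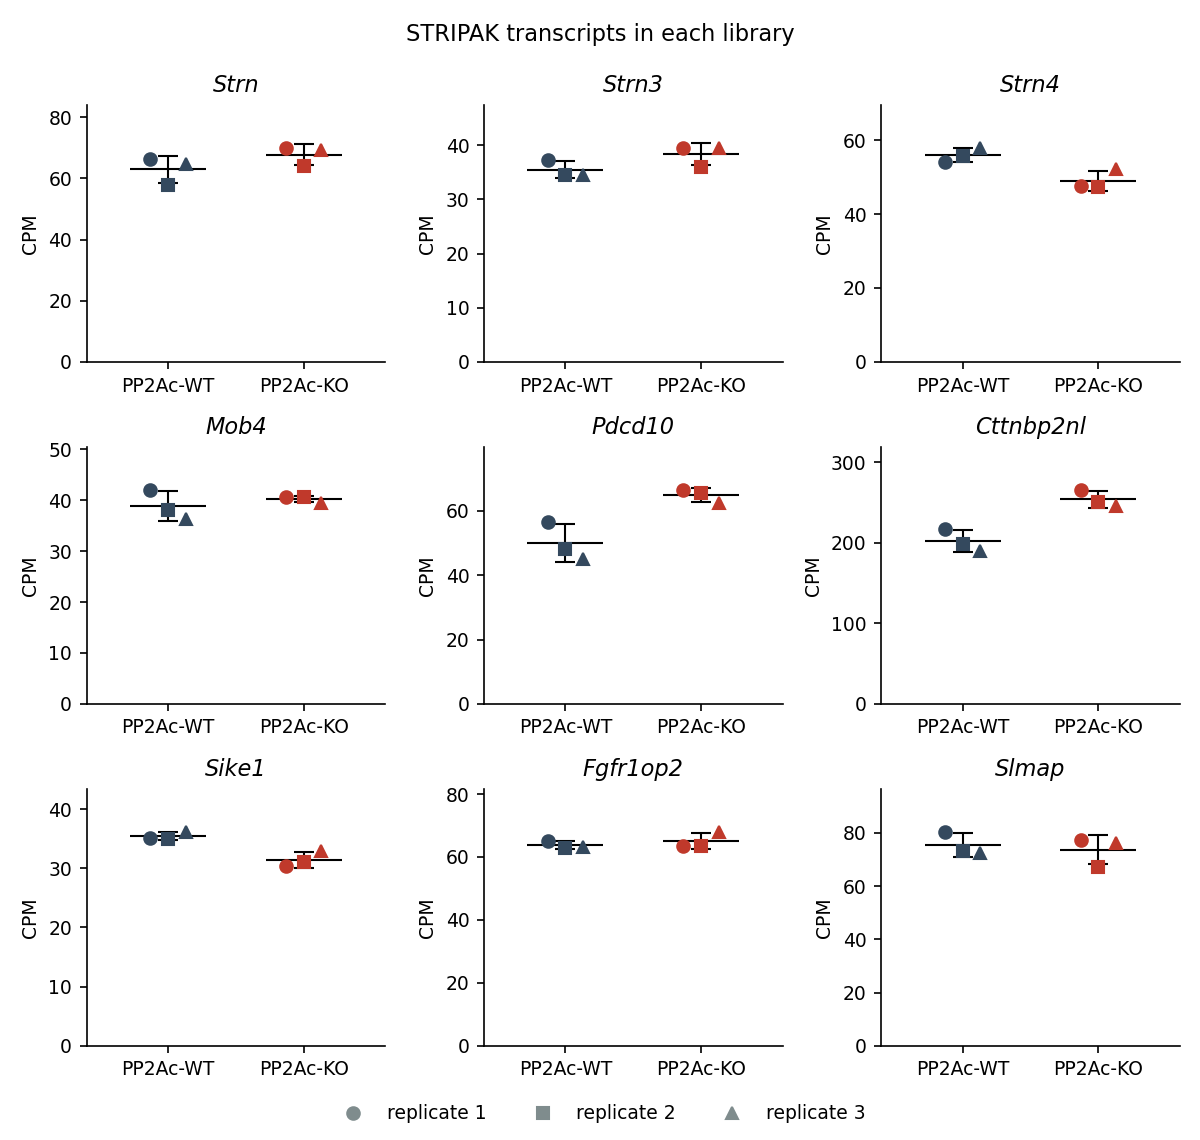
CPM (y axis from 0) of the 9 STRIPAK transcripts in the 3 PP2Ac-WT and 3 PP2Ac-KO libraries; each point is a library, its shape the replicate number, lines the group mean and bars the SD. The groups are apart for *Strn4* and *Sike1*, with PP2Ac-KO below, and for *Pdcd10* and *Cttnbp2nl*, with PP2Ac-KO above, and overlap for the other 5.

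*Pdcd10* encodes PDCD10 (CCM3), which links the germinal center kinases MST4, STK24 and STK25 to the striatin scaffold and is mutated in cerebral cavernous malformation. Its level was 66.6, 65.6 and 62.6 CPM in PP2Ac-KO replicates 1 to 3 and 56.5, 48.3 and 45.1 CPM in PP2Ac-WT replicates 1 to 3. Every PP2Ac-KO library was above every PP2Ac-WT library, and the PP2Ac-WT libraries were the more spread. The log2 fold change was 0.38 (SE 0.08, adjusted p = 0.00696, edgeR with Benjamini-Hochberg adjustment), a rise of 29.9% with a 95% interval of 13.9% to 48.1%. *Pdcd10* lies on chromosome 3 from 75516490 to 75556856 (GRCm38), on the reverse strand. Of the 50-base windows of its transcripts, 13.4% also occur in *Gm14253*, a processed pseudogene on chromosome 2 that had 12 to 25 reads per library, against 1891 to 2827 on *Pdcd10*.

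*Cttnbp2nl* encodes an adaptor that binds striatins and takes part of the complex to the actin cytoskeleton. It had 265.8, 249.9 and 245.5 CPM in PP2Ac-KO replicates 1 to 3 against 216.8, 198.5 and 190.1 CPM in PP2Ac-WT replicates 1 to 3. The groups did not overlap, and within both groups replicate 1 was the highest library. *Cttnbp2nl* rose by 25.7% (95% interval 12.3% to 40.7%), a log2 fold change of 0.33 (SE 0.07, adjusted p = 0.00621 in edgeR). It lies on chromosome 3 from 105001915 to 105053146, reverse strand, and 1.90% of its exonic bases overlap an antisense gene, *Gm40117*, which had 2 to 8 reads per library. Both *Pdcd10* and *Cttnbp2nl* passed with the replicate block, with RLE and upper-quartile scaling, with either other filter, with DESeq2, with limma-voom and without any one library. Scaled by library size alone they did not pass, at log2 fold changes of 0.16 (adjusted p = 0.0862, edgeR) and 0.12 (adjusted p = 0.151, edgeR) against a median gene of -0.24. Tested against a minimum change of 0.2 on the log2 scale (glmTreat of edgeR), *Pdcd10* passed (adjusted p = 0.0427) and *Cttnbp2nl* did not (adjusted p = 0.0611).

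*Strn4* encodes striatin 4 (zinedin), the B subunit named in the title of the series. It lies on chromosome 7 from 16815889 to 16840931, forward strand. Its level was 47.5, 47.3 and 52.1 CPM in the PP2Ac-KO libraries against 54.1, 55.7 and 57.9 CPM in PP2Ac-WT. The highest PP2Ac-KO library, replicate 3, was below the lowest PP2Ac-WT library, replicate 1, by a narrow margin. *Strn4* fell by 0.19 on the log2 scale (SE 0.06, adjusted p = 0.0399, edgeR), a difference of -12.3% with a 95% interval of -20.5% to -3.30%. This call was close to the threshold. It was lost with RLE scaling (adjusted p = 0.0545, edgeR), without the filter on low counts (0.0586) and with DESeq2 (0.0877), and also without PP2Ac-KO replicate 1 (0.109) or 2 (0.146) or PP2Ac-WT replicate 2 (0.103) or 3 (0.129). It was kept with the replicate block (adjusted p = 0.00289, edgeR) and without PP2Ac-KO replicate 3 (0.0352) or PP2Ac-WT replicate 1 (0.0310). The call also stayed with upper-quartile scaling (0.0130), library size alone (0.00118), at least 10 counts in every library (0.0341) and limma-voom (0.0410). Against a minimum change of 0.2 on the log2 scale *Strn4* did not pass (adjusted p = 0.576, glmTreat of edgeR). Relative to the median gene, *Strn4* was between -0.20 and -0.13 in all 14 alternatives that gave a fold change.

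*Sike1* encodes SIKE, the suppressor of IKKε, which binds TBK1 and IKKε and connects STRIPAK with SLMAP. It had 30.4, 31.0 and 33.0 CPM in the PP2Ac-KO libraries against 35.2, 34.9 and 36.2 CPM in PP2Ac-WT. All 3 PP2Ac-KO libraries were below the 3 PP2Ac-WT libraries. *Sike1* fell by 0.17 on the log2 scale (SE 0.06, adjusted p = 0.0492, edgeR), a difference of -11.2% (95% interval -19.1% to -2.50%). The call did not survive the loss of any one of the 6 libraries, with adjusted p from 0.0531 (without PP2Ac-KO replicate 3) to 0.145 (without PP2Ac-KO replicate 2) in edgeR, nor RLE scaling (0.0654), no filter (0.103) or DESeq2 (0.134). Its value relative to the median gene lay between -0.17 and -0.13 in the same 14 alternatives. The gene lies on chromosome 3 from 102995708 to 103008459, forward strand.

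The other 5 members did not pass the test. They lie on chromosome 17 from 78649913 to 78737196 (*Strn*), chromosome 12 from 51609632 to 51691897 (*Strn3*), chromosome 1 from 55131231 to 55154899 (*Mob4*), chromosome 6 from 146577203 to 146599198 (*Fgfr1op2*) and chromosome 14 from 26413168 to 26534931 (*Slmap*). *Strn*, striatin, had 70.0, 63.9 and 69.4 CPM in the PP2Ac-KO libraries against 66.3, 57.9 and 64.6 CPM in PP2Ac-WT, groups that overlapped, with replicate 2 the lowest in both. Its log2 fold change was 0.11 (SE 0.07, adjusted p = 0.263, edgeR), and with the replicate block it was 0.11 with an SE of 0.04 and an adjusted p of 0.0430 (edgeR). *Strn3*, the striatin also called SG2NA, had 39.5, 36.0 and 39.5 CPM in the PP2Ac-KO libraries against 37.3, 34.5 and 34.6 CPM in PP2Ac-WT (log2 fold change 0.11, adjusted p = 0.209, edgeR). PP2Ac-KO replicate 2 lay inside the range of PP2Ac-WT, and the 95% interval of the log2 change ran from -0.03 to 0.26.

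*Mob4*, the MOB protein that binds striatin and lies between the phosphatase and the kinases, was at 40.6, 40.6 and 39.5 CPM in the PP2Ac-KO libraries against 42.1, 38.1 and 36.3 CPM in PP2Ac-WT, so that all PP2Ac-KO libraries lay within the range of PP2Ac-WT. *Fgfr1op2*, a paralog of *Sike1*, had 63.5, 63.6 and 68.1 CPM against 65.2, 62.8 and 63.1 CPM, and shares 1.23% of its exonic bases with the opposite-strand gene *Ints13*. *Slmap*, whose protein binds phosphorylated MST1 and MST2 and so brings them to the phosphatase, had 77.4, 67.4 and 76.1 CPM against 80.5, 73.3 and 72.6 CPM. For these 3 the libraries of the groups overlapped, with 95% intervals of the log2 change from -0.10 to 0.20 for *Mob4*, from -0.10 to 0.16 for *Fgfr1op2* and from -0.20 to 0.13 for *Slmap*. Scaled by library size alone, the signs of *Strn*, *Strn3*, *Mob4* and *Fgfr1op2* turned negative, and *Fgfr1op2* (adjusted p = 0.0273, edgeR) and *Slmap* (adjusted p = 0.0105, edgeR) were then called lower, at log2 fold changes of -0.18 and -0.25 against a median gene of -0.24.

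**Figure D2:**
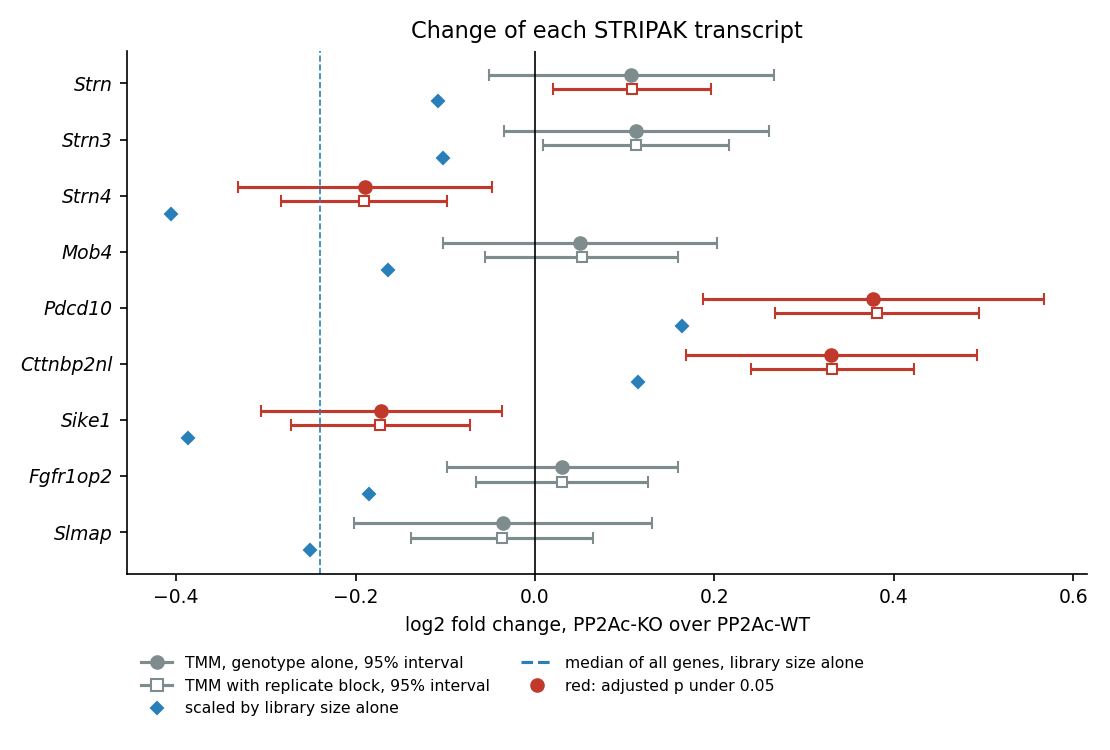
Log2 fold change of each STRIPAK transcript, PP2Ac-KO over PP2Ac-WT (x axis), with TMM scaling for genotype alone (filled circles) and with the replicate block (open squares), each with its 95% interval and in red where the adjusted p is under 0.05; diamonds show the value scaled by library size alone and the dashed line its median over all genes (-0.24). *Pdcd10* (0.38) and *Cttnbp2nl* (0.33) are furthest to the right and *Strn4* (-0.19) and *Sike1* (-0.17) furthest to the left. Scaling by library size alone shifts all genes by about the same amount, so the order of the diamonds is not a separate result.

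Differences between members of 1 library do not depend on the scaling. The log2 ratio of *Strn4* to *Strn* reads was -0.56, -0.44 and -0.41 in PP2Ac-KO and -0.29, -0.06 and -0.16 in PP2Ac-WT, and that of *Strn4* to *Strn3* was 0.27, 0.39 and 0.40 against 0.54, 0.69 and 0.74. Both ratios were lower in every PP2Ac-KO library than in any PP2Ac-WT library, by 0.30 on the log2 scale. Such separation was common, with 23 of the 36 pairs of members parting the groups, and the ratios of *Strn4* to *Mob4* and to *Slmap* overlapped. These pairs reuse the same 9 genes, 4 of which part the groups on their own. Ratios of other genes were not formed, so no share over all genes stands beside this count. The ratio of *Strn* to *Strn3* was 0.82 ± 0.01 in PP2Ac-KO and 0.83 ± 0.08 in PP2Ac-WT (SD, n = 3), with overlap. Among the paralogs of the SIKE pair, *Sike1* to *Fgfr1op2* was -1.05 ± 0.01 against -0.85 ± 0.04 (SD, n = 3), again without overlap. The ratio of *Strn4* to *Sike1*, the 2 members that fell, was 0.64 ± 0.03 against 0.66 ± 0.03 (SD, n = 3), with overlap. With 3 against 3 libraries an exact permutation test of a single ratio cannot give a p under 0.1, so no p is given.

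Per kilobase of exon, taken as the union of all annotated exons, *Cttnbp2nl* and *Pdcd10* had the highest levels of the members and *Sike1* the lowest. In PP2Ac-WT the order was *Cttnbp2nl* (24.8 ± 1.68 CPM per kb), *Pdcd10* (17.01 ± 2.00), *Fgfr1op2* (13.8 ± 0.286), *Slmap* (9.37 ± 0.543), *Mob4* (7.996 ± 0.607), *Strn* (7.10 ± 0.502), *Strn4* (7.02 ± 0.242), *Strn3* (5.34 ± 0.240) and *Sike1* (3.44 ± 0.0671; all SD, n = 3). *Mob4* overlapped *Strn*, and *Strn* overlapped *Strn4*, while the other neighbours did not overlap. The order of the means was the same in PP2Ac-KO, but there *Strn4* (6.16 ± 0.342 CPM per kb, SD, n = 3) was below *Strn* (7.65 ± 0.375) in every library and overlapped *Strn3* (5.77 ± 0.303) instead. Divided by the longest annotated transcript, *Strn4* was placed above *Mob4*, *Strn3* and *Strn* in both groups, so the order among these 4 rests on the length used. The exon union of *Strn4* is 7958 bases and its longest transcript 4114 bases.

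The share of *Strn4* in the summed striatin level per kilobase was 30.1%, 31.98% and 32.2% in the PP2Ac-KO libraries against 34.2%, 37.4% and 36.8% in PP2Ac-WT, which is 31.4 ± 1.13% against 36.1 ± 1.71% (SD, n = 3). *Strn* took 39.1 ± 0.700% against 36.5 ± 1.41% and *Strn3* took 29.5 ± 0.447% against 27.4 ± 0.988% (SD, n = 3), and the groups did not overlap for any of the 3, whose shares are tied because they add up to the whole. The striatin sum itself overlapped between the groups, at 19.6 ± 0.898 CPM per kb in PP2Ac-KO and 19.5 ± 0.643 in PP2Ac-WT (SD, n = 3). Divided by the summed level of the catalytic genes *Ppp2ca* and *Ppp2cb*, also per kilobase, the striatin sum was 0.668 ± 0.0190 in PP2Ac-KO against 0.347 ± 0.0145 in PP2Ac-WT (SD, n = 3). The divisor includes the targeted gene, with a mean of 1.01 CPM in PP2Ac-KO against 205.6 CPM in PP2Ac-WT. The higher ratio follows from that loss and is not a separate result about the striatins. All these levels per kilobase rest on the length used. With the longest transcript the ratio was 1.03 ± 0.0315 against 0.529 ± 0.0202 (SD, n = 3), and the shares of *Strn*, *Strn3* and *Strn4* were 26.1%, 34.4% and 39.5% in PP2Ac-KO against 23.9%, 31.5% and 44.6%, so that *Strn* was the lowest of the 3 and not the highest, while each share kept the direction of its difference.

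**Figure D3:**
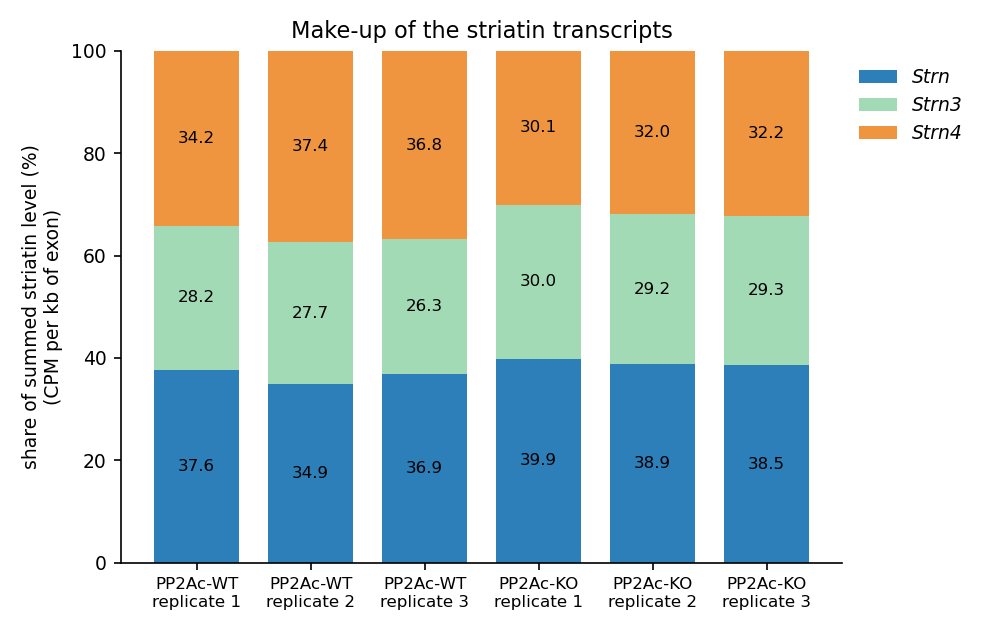
Share (%) of *Strn*, *Strn3* and *Strn4* in the summed striatin level (CPM per kilobase of exon) in each library, the 3 PP2Ac-WT libraries on the left and the 3 PP2Ac-KO libraries on the right. The *Strn4* segment is 34.2% to 37.4% in PP2Ac-WT and 30.1% to 32.2% in PP2Ac-KO.

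The promoters of *Pdcd10* and *Cttnbp2nl*, which rose, and of *Strn4*, which fell, are shown so that the sequences upstream of members that moved in opposite directions can be read side by side. Promoter sequences were taken from RefSeq (GRCm38.p6), whose table held 8 of the 9 members. Each printed run is the 250 bases before the annotated start, on the strand of the gene. Capitals mark matches, on either strand, to the core GAAANNGAA of the interferon-stimulated response element, to the STAT site TTCNNNGAA or to the TEAD site GGAATG, which 8.53%, 8.33% and 14.6% of 32544 promoter windows of 300 bases hold.
Pdcd10, chr3:75556853-75557102, reverse strand: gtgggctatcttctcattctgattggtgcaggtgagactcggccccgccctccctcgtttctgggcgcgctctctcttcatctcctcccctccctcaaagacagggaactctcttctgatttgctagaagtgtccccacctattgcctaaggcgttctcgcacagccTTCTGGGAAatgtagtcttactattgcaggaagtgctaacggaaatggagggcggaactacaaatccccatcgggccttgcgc
Cttnbp2nl, chr3:105053147-105053396, reverse strand: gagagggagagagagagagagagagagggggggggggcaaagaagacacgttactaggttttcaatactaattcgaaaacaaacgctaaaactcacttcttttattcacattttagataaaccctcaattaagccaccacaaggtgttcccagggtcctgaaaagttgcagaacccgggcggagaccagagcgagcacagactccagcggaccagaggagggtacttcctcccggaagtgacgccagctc
Strn4, chr7:16815639-16815888, forward strand: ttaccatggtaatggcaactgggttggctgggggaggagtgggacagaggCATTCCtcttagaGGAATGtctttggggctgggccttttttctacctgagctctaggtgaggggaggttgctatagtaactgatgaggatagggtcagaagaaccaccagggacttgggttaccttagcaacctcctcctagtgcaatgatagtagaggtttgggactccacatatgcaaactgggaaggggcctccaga
*Pdcd10* has 1 match to TTCNNNGAA, which starts 83 bases before the gene. *Strn4* has 2 matches to GGAATG, in opposite orientation, 200 and 187 bases before the start. *Cttnbp2nl* has none of the 3 in this window, nor in the window of its other annotated start. Of the remaining members, *Mob4* has 1 match to GAAANNGAA, and the windows of *Strn*, *Strn3*, *Fgfr1op2* and *Slmap* have none of the 3. A match is only a run of letters, and binding was not measured.

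The level of *Strn4* over the 6 libraries was most like that of *Chka*, *Slc25a26*, *Fam219b*, *Cdkn3* and *Gm37168*, with Pearson's r of log2 CPM from 0.995 to 0.997 (a description over 6 libraries, which share the 2 groups). This likeness is common, since 427 of 13679 genes had r above 0.95 with *Strn4*. All 5 were lower in PP2Ac-KO, by more than *Strn4* was. Their direction follows from the choice, since they were picked for likeness to *Strn4* over these same libraries. Their log2 fold changes ran from -1.12 for *Cdkn3* to -0.44 for *Fam219b* (adjusted p from 0.00434 to 0.0253, edgeR).

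Partners of the complex were taken from 7 lists of 40 genes by role. Of these, 37 were tested, and 14 were higher in PP2Ac-KO and 4 lower, where 18.1% and 19.0% of all genes were. Their median log2 fold change was 0.08 against -0.02 for all genes. With the replicate block 16 were higher and 5 lower (24.4% and 26.4% of all genes). Scaled by library size alone, 9 were higher and 10 lower, where 11.0% and 44.8% of all genes were. *Cttnbp2*, the neuronal paralog of *Cttnbp2nl*, had 0 to 1 reads per library, and *Ppp2r2b* and *Ppp2r2c* had 0 in every library, which allows up to 3. In the PP2A core, the catalytic paralog *Ppp2cb* had 42.8 ± 1.02 CPM against 42.0 ± 0.568 CPM (SD, n = 3) with a log2 fold change of 0.03 (adjusted p = 0.731, edgeR), and scaled by library size alone of -0.19 (adjusted p = 0.0206, edgeR). The scaffold A subunits *Ppp2r1b* and *Ppp2r1a* were higher by 0.42 (adjusted p = 0.00105, edgeR) and 0.20 (adjusted p = 0.0273, edgeR), the latter lost with upper-quartile scaling (0.14, adjusted p = 0.0944, edgeR) and with its sign turned (-0.02) when scaled by library size alone. *Ppp2ca* was lower by 7.67 on the log2 scale.

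Among the kinases that STRIPAK binds, the list of the germinal center kinases and their cerebral cavernous malformation partners had 1 gene higher and 0 lower of 5 in edgeR. Over all genes, 18.1% were higher and 19.0% lower. With the replicate block the list had 2 higher and 1 lower, where 24.4% and 26.4% of all genes were. At an unadjusted p under 0.05 without the block it had 2 and 0, and no share of all genes was formed at that threshold. The gene called without the block was *Krit1*, whose product acts in the same pathway as PDCD10. *Krit1* was higher by 0.31 (adjusted p = 0.00675, edgeR), but by 0.09 (adjusted p = 0.247, edgeR) when scaled by library size alone. Of the 7 Hippo kinases and cofactors, 4 were higher and 0 lower in edgeR, where 18.1% and 19.0% of all genes were. The counts were 5 and 0 with the replicate block, where 24.4% and 26.4% of all genes were. At an unadjusted p under 0.05 without the block they were 5 and 0, again with no share of all genes formed. The largest changes were those of the scaffold *Sav1*, 129.3 ± 9.98 CPM against 81.1 ± 9.23 CPM (SD, n = 3; log2 fold change 0.67, adjusted p = 5.77e-04, edgeR), of the LATS cofactor *Mob1a* (0.44, adjusted p = 0.00421) and of *Stk3*, which encodes MST2 (0.30, adjusted p = 0.00591). Scaled by library size alone, *Sav1* and *Mob1a* were still called and *Stk3* was not (0.09, adjusted p = 0.270, edgeR). The remaining called gene of this list was lost with upper-quartile scaling (adjusted p = 0.0747, edgeR) and with library size alone (adjusted p = 0.659, edgeR). Of the MAP4K kinases of the complex, 1 of 3 was lower, where 19.0% of all genes were. This was *Mink1*, lower by 0.18 on the log2 scale (adjusted p = 0.0416, edgeR), and it was not called with RLE scaling (adjusted p = 0.0701, edgeR).

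Of 10 tested B subunits of other families, which compete with the striatins for the same PP2A core, 2 were higher and 2 lower. Over all genes, 18.1% were higher and 19.0% lower. *Ppp2r5a* (B56α) had 216.8 ± 18.4 CPM against 137.1 ± 8.79 CPM (SD, n = 3), which is 0.66 on the log2 scale (adjusted p = 3.53e-04, edgeR). *Ppp2r2a* (B55α) was higher by 0.65 (adjusted p = 4.90e-04, edgeR) and *Ppp2r3a* (PR72/130) lower by 0.66 on the log2 scale (adjusted p = 0.00183, edgeR). These are the largest changes of the list, and the median absolute log2 fold change of the 10 was 0.11. The log2 fold changes of the 3 striatins lay between -0.19 and 0.11. Of the 5 genes for TBK1 and IKKε, which SIKE binds, and for their adaptors, 4 were higher, where 18.1% of all genes were. *Tank* was higher by 1.10 (adjusted p = 3.43e-04, edgeR), *Ikbke* by 0.91 (adjusted p = 5.51e-05, edgeR) and *Azi2* by 0.75 (adjusted p = 9.16e-04, edgeR), and all 3 kept their sign and their call under each scaling.

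**Figure D4:**
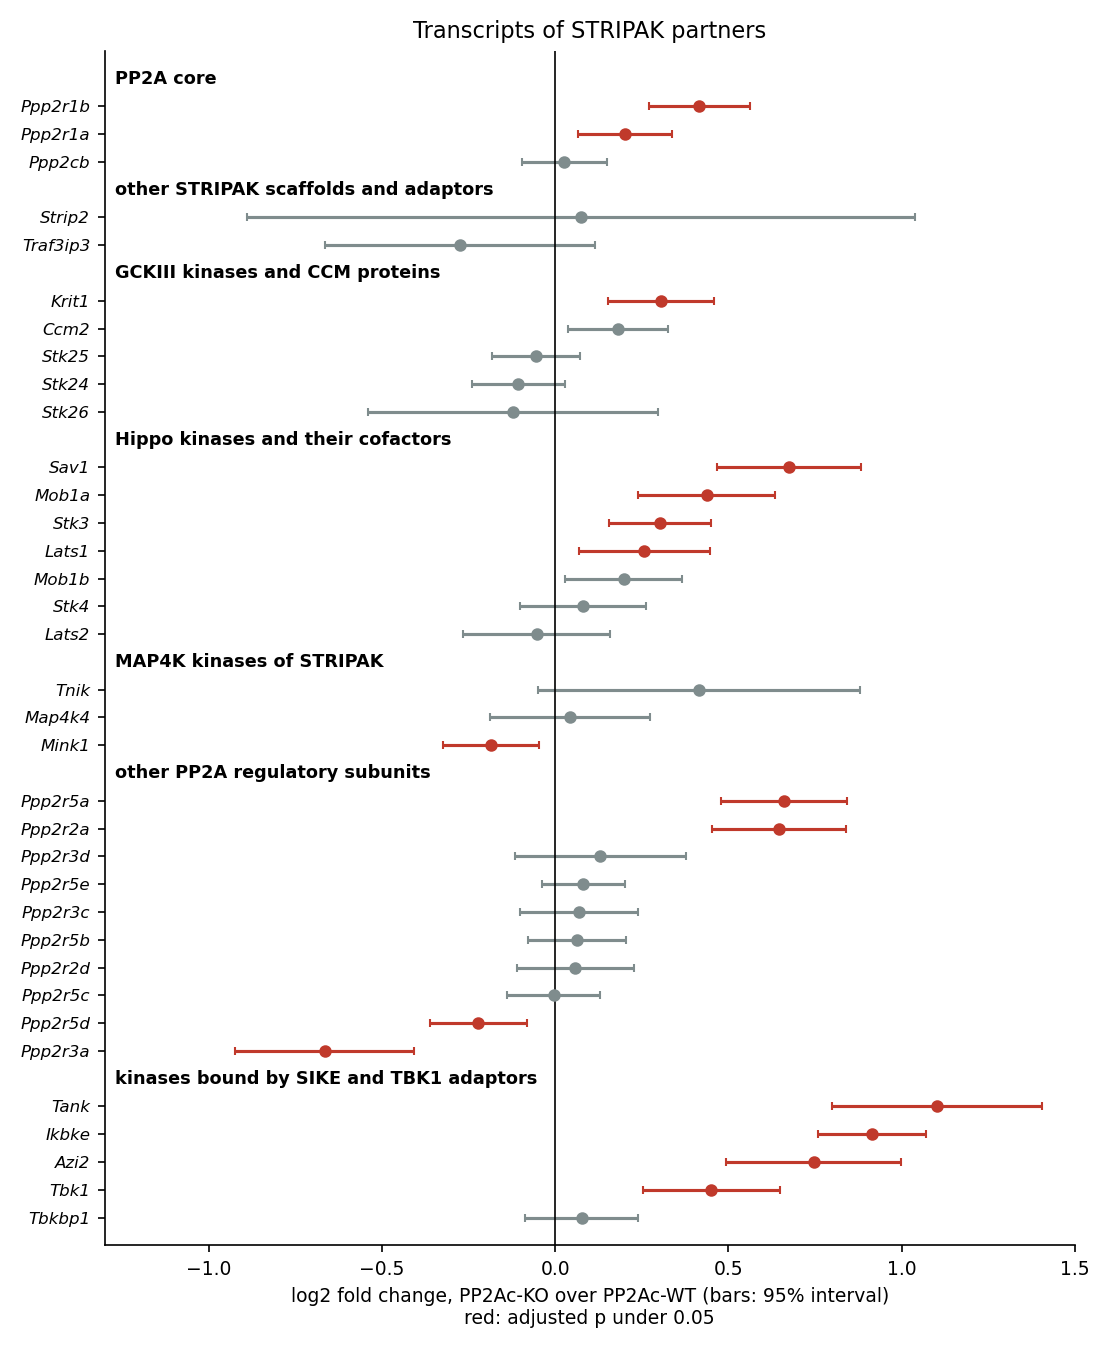
Log2 fold change, PP2Ac-KO over PP2Ac-WT (x axis), of partner genes by list, with 95% intervals and in red where edgeR's adjusted p is under 0.05; *Ppp2ca* (-7.67) lies off the scale and is left out. *Tank* (1.10) and *Ikbke* (0.91) are furthest to the right and *Ppp2r3a* (-0.66) furthest to the left.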

How the data were processed

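Reads on each gene were counted by the authors and deposited as a single table of whole-number counts for the 6 libraries, without normalization and with the build mm10 in its name. Libraries were poly(A) selected, made with a directional kit and sequenced paired-end with 150-base reads. The submitters' processing notes list fastp 0.20.0, kallisto 0.46.1, STAR 2.7.1a, HTSeq 0.11.2, edgeR 3.34.0 and limma 3.48.3, without their roles, and the annotation release and strand setting are not given in the sources used here. Without a strand setting, reads of overlapping genes on opposite strands cannot be told apart.

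Genotypes were taken from the sample titles, the age of the mice, the culture and cGAMP from the study's methods. The test was edgeR 4.0.16 (R 4.3.3), with filterByExpr (minimum count 10, minimum total 15), TMM scaling, and glmQLFit with glmQLFTest for genotype over 13680 genes, with Benjamini-Hochberg adjustment over all of them and a threshold of 0.05. CPM use the TMM factors, errors are SDs of 3 libraries, and each member had 1024 or more reads in every library. Pairs of replicates of a group differed by more than sampling noise, and all 6 libraries were kept.

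The replicate block was a second fit with the replicate number beside genotype. The numbers 1 to 3 are shared by both genotypes in the titles, and libraries of the same number were taken as pairs. The titles do not say that they are pairs. The deviations from the group means correlated by 0.27, 0.13 and 0.32 within the 3 same-numbered pairs. Other matchings of the libraries were not examined, so these values cannot show that the numbers mark pairs. Alternatives were RLE and upper-quartile scaling, library size alone, other filters, DESeq2 1.42.0, limma-voom with limma 3.58.1, glmTreat, and each library left out. Positions, exons and lengths come from GENCODE M21 (GRCm38), in which 98.3% of the symbols occur, and promoters from RefSeq. Protein sequences were not analysed here.

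The named genes are the 9 members, *Ppp2ca*, the genes closest to *Strn4*, genes overlapping a member, and for each partner list up to 3 called genes with the largest change. *Ppp2cb* and the pseudogene *Gm14253* were named after their values were seen, and the striatin shares without 1 library were added then. Some genes under this rule are not reported here, and the plot of partners leaves them out. The members and lists were chosen with earlier results of these data known.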

Additional observations from a re-analysis of the deposited data

How the results depend on the processing

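With the replicate block 3 members were called higher and 2 lower, where 24.4% and 26.4% of all genes were. *Strn* was added (log2 fold change 0.11, adjusted p = 0.0430, edgeR), and the block changed no other call of a member. Among the members, the count called higher was 2 in the other settings, except with library size alone (0) and glmTreat (1). Over all genes, 1503 and 1675 of 13680 were higher in these. The count called lower was 2, and it became 0 with RLE scaling, without a filter on low counts, with DESeq2 and with glmTreat. At an unadjusted p under 0.05 there were 2, 2, 1 and 0. It became 4 with library size alone. Over all genes, 2425 of 13680 were lower with RLE scaling, 2852 of 24686 without the filter and 2280 of 13680 with DESeq2. With glmTreat 1558 of 13680 were lower, and with library size alone 6125 of 13680. Leaving out 1 library gave 0 to 1 members lower, with 0 to 2 at an unadjusted p under 0.05. Over all genes, 1873 to 2720 were then lower, with 13870 to 14169 tested. Of the partners, 9 were higher with library size alone and 9 with glmTreat, and 10 were lower with library size alone and 2 with glmTreat. With 1 library left out 2 to 4 were lower, with 2 without PP2Ac-KO replicate 1, PP2Ac-KO replicate 2 or PP2Ac-WT replicate 2. The counts over all genes in these settings are those given above. The sign turned with library size alone for *Strn* (-0.11), *Strn3* (-0.10), *Mob4* (-0.16) and *Fgfr1op2* (-0.18), and with upper-quartile scaling for *Mob4* (-0.012) and *Fgfr1op2* (-0.033), none of which was called in the main test. With 1 library left out, *Fgfr1op2* ranged from -3.6e-05 to 0.049 and *Slmap* from -0.080 to 0.025. Library size alone, by its construction, shifts all genes by about the same amount. The cause of the other changes was not tested. With the longest transcript in place of the exon union, the *Strn4* share differed by -5.09 percentage points in place of -4.67. With the exon union and 1 library left out, the *Strn4* share differed by -5.64 to -4.02 percentage points.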
